A study of Mus musculus with 17 samples.

Results

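The BCL2 family genes described here are 10 genes of the mitochondrial pathway of cell death: the pro-survival genes Bcl2, Bcl2l1 and Mcl1, the effectors Bax and Bak1, and the BH3-only genes Bcl2l11, Bid, Bmf, Bbc3 and Pmaip1. They were taken by symbol from the table with the Arid3a transgene and joined to the other tables by Ensembl identifier. All 10 were found in all 3 tables, out of 47069 genes listed in the table with the transgene and in the table with the hairpins, and 47643 in the WT table. RNA sequencing read counts from 17 libraries of mouse fetal liver cells, from embryos of E12.5 to E13.5, were used. The donor strain carries the nuclease Cas9 and the green marker EGFP at the Rosa26 locus under the CAG promoter, so all groups have both. The 14 Gata1s libraries also carried sgGata1, a guide against the gene of the transcription factor GATA1, and are named for its short form. Their second transgene was LUC (luciferase, 3 libraries) or Arid3a (3), both with doxycycline at 1 µg/mL for 48 h, or a control hairpin named sh-ctrl (3), a hairpin against Arid3a named shArid3a (2, numbered 1 and 3) or the microRNA miR-125b (3), these with the same dose for 10 days. The WT group (3 libraries) carried the luciferase guide sgLuc and the luciferase hairpin shLuc and had no doxycycline. The labels do not say whether libraries of a group came from separate embryos or cultures, so the p-values measure the spread between these libraries, which may be technical.

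BCL2 family proteins decide whether the outer membrane of the mitochondrion stays closed. BAX and BAK1, once activated, form pores in it, cytochrome c leaves, and caspases are switched on; BCL2, BCL-XL (from Bcl2l1) and MCL1 hold them in check; and BH3-only proteins such as BIM (from Bcl2l11), BID, BMF, PUMA (from Bbc3) and NOXA (from Pmaip1) carry stress signals to either side. In the megakaryocyte lineage BCL-XL and MCL1 are known to keep cells and platelets alive. BAK1 and BMF are reported targets of miR-125b, and BIM is a known mediator of death after TGF-beta. These are statements about proteins, while the values below are RNA levels in bulk libraries, where fewer cells with a transcript and less transcript per cell cannot be told apart.

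Levels are given in CPM, read counts scaled to a common library size, with TMM factors over the 46880 genes shared by the 3 tables. Libraries of LUC and Arid3a held 31339238 to 38678649 counts, those with hairpins or miR-125b 31992089 to 40859301 and those of WT 16362439 to 19212193. Arid3a, the gene named by the hairpin and the transgene, was 22.0 ± 0.682 CPM (SD, n = 2) in shArid3a, 10.0 ± 1.75 (SD, n = 3) in miR-125b and 58.3 ± 7.49 (SD, n = 3) in sh-ctrl. Under the label Arid3a its level was 65.7 ± 11.1 CPM, and in LUC 62.1 ± 2.68 (SD, n = 3 each). These differ by 0.08 on the log2 scale (adjusted p in edgeR 0.737), so the label was not matched by more Arid3a RNA and no direction of an Arid3a effect is drawn from it. Gata1 RNA was at 233 to 595 CPM in the Gata1s libraries and at 59.98 to 71.8 in WT, a level that does not show which form of the protein was made. Megakaryocyte markers (7 genes) summed to 2208 to 4843 CPM in the Gata1s libraries and 877 to 1121 in WT. Erythroid markers (7 genes) summed to 118 to 644 and 82.4 to 132 CPM. Hepatoblast markers (5 genes) summed to at most 5.15 CPM in any library, with Hnf4a at 0 in 5 of the 6 groups. Endothelial markers (5 genes) summed to 121 to 173.5 CPM in the Gata1s libraries, with Cdh5 at 0 in each, and to 192 to 216 in WT. B lymphoid markers (6 genes) summed to at most 1.96 CPM in the Gata1s libraries and 12.46 to 18.1 in WT, and T lymphoid markers (5 genes) to at most 5.12 CPM in any library.

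The family spanned a wide range of levels in every group. Compared per kilobase of gene model, so that genes can be set side by side, Bax was at 341 ± 28.6 CPM per kb in sh-ctrl (SD, n = 3) and Bmf at 1.41 ± 0.275. Between them lay, from high to low, Mcl1 (69.6), Bbc3 (66.8), Bak1 (61.8), Bid (35.7), Bcl2l1 (25.5), Pmaip1 (19.1), Bcl2 (12.9) and Bcl2l11 (2.68), all in mean CPM per kb in sh-ctrl. The libraries of Mcl1 and Bbc3 overlapped, as did those of Bbc3 and Bak1 and those of Pmaip1 and Bcl2, so these neighbours in the order did not differ beyond their spread. Bax was the highest member in all 5 Gata1s groups. In WT, Mcl1 (94.9 ± 1.44 CPM per kb) and Bax (93.7 ± 19.1) led with overlapping libraries, and Bcl2 (2.71 ± 0.573), Bmf (2.75 ± 0.30) and Bcl2l11 (2.88 ± 1.03) lay together at the bottom (SD, n = 3 each).

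**Figure D1:**
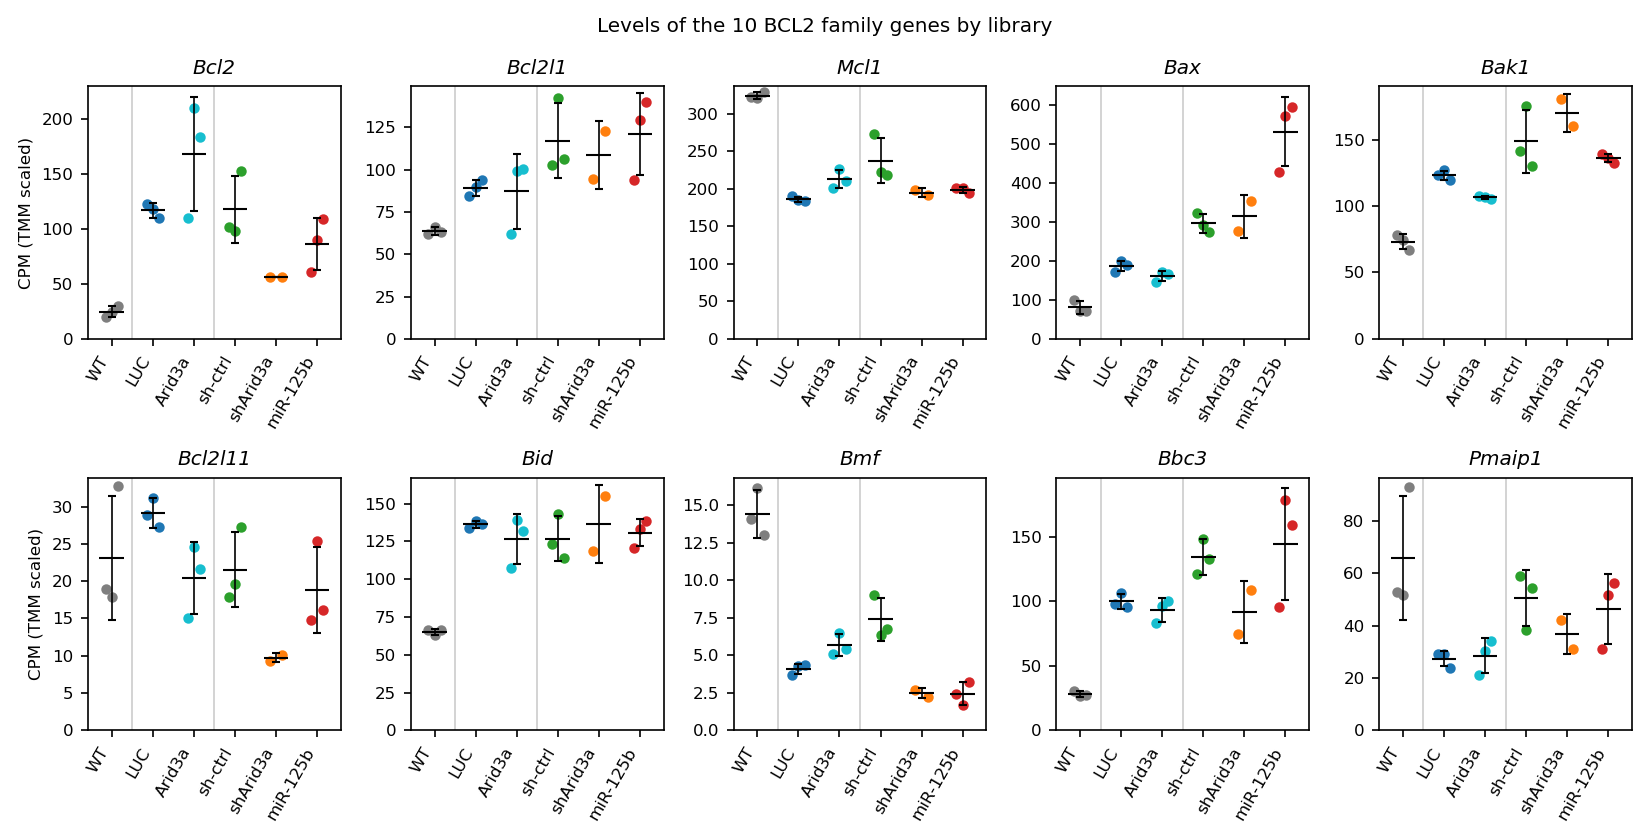
TMM-scaled CPM (y axis, linear from 0) of each of the 10 genes in every library, by group (x axis); horizontal lines are group means and bars the SD between libraries, and grey lines part the 3 count tables. Bax is highest in the miR-125b libraries (429 to 593 CPM), and Bmf is lowest in the shArid3a and miR-125b libraries (1.68 to 3.25 CPM).

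WT libraries held less RNA of Bcl2, of both effectors and of the BH3-only genes Bid and Bbc3 than any Gata1s library, and more of Mcl1 and Bmf. Of the 10 genes, 5 were lower in all 3 WT libraries than in all 14 Gata1s libraries (Bcl2, Bax, Bak1, Bid, Bbc3), 2 were higher (Mcl1, Bmf) and 3 overlapped (Bcl2l1, Bcl2l11, Pmaip1). Over 13089 genes compared in the same way, 34.5% did not overlap, 19.6% lower and 14.9% higher in WT. Bcl2 was at 19.7, 24.4 and 30.2 CPM in the WT libraries and between 56.4 and 210 CPM in the Gata1s libraries. Bbc3, which encodes PUMA, was at 26.9 to 30.9 CPM in WT and 74.7 to 178 in the Gata1s libraries. For Bcl2 the mean of LUC was 4.72 times and that of sh-ctrl 4.76 times the mean of WT, and for Bbc3 they were 3.54 and 4.75 times. Mcl1 was at 322, 321 and 330 CPM in WT against 183 to 273 in the Gata1s libraries. Bmf was at 14.1, 16.1 and 13.04 CPM in WT against 1.68 to 9.06. These are levels set side by side without a test, since genotype, doxycycline, second transgene and count table all differ between WT and the other groups and cannot be told apart. Neutrophil and monocyte markers (7 genes) summed to 6910 to 9185 CPM in WT against 5.25 to 165 in the Gata1s libraries, and mast cell and basophil markers (7 genes) to 1200 to 1403 against 200 to 923. Macrophage markers (6 genes) summed to 128 to 143 CPM in WT and at most 8.28 elsewhere. The part of these cell types in the differences of the family was not tested.

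The control groups of the Gata1s cells also differed in level. All 3 sh-ctrl libraries lay above all 3 LUC libraries for 7 of the 10 genes (Bcl2l1, Mcl1, Bax, Bak1, Bmf, Bbc3, Pmaip1) and below them for 1 (Bcl2l11), where 40.2% of 13089 genes did not overlap, 19.3% higher and 20.9% lower. Bax was at 172, 199 and 189 CPM in LUC and at 322, 293 and 273 in sh-ctrl. Pmaip1, which encodes NOXA, was at 29.3, 29.0 and 23.9 CPM in LUC and at 58.8, 38.3 and 54.3 in sh-ctrl. Erythroid markers summed to 124 to 168 CPM in LUC and 351 to 644 in sh-ctrl, and megakaryocyte markers to 2541 to 2901 and 3016 to 4843, and the part of these cells in the family's levels was not tested. Time on doxycycline, construct and table change together here, and no test was made.

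Expressing miR-125b for 10 days went with more Bax and less Bmf. Relative to sh-ctrl, Bax RNA rose 1.77-fold and Bmf RNA fell to 0.328 of its level, and the other 8 members were not called. That is 2 of 10 members at an edgeR quasi-likelihood adjusted p-value under 0.05, where 24.4% of the 14004 genes tested were called, 12.1% higher and 12.2% lower, so the share of members called is close to that of all genes. These 2 were also the members with an unadjusted p-value under 0.05, which 39.8% of all genes had. The median log2 fold change of the members was −0.14 against −0.03 over all genes tested, with 4 members above 0 and 6 below. Erythroid markers summed to 351 to 644 CPM in sh-ctrl and 193 to 235 in miR-125b, and neutrophil and monocyte markers to 51.5 to 109 and 88.5 to 165. The part of these cells in the values of the family was not tested.

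Bax encodes an effector that makes the mitochondrial pore (ENSMUSG00000003873, chromosome 7, 45461695 to 45466898, minus strand, mm10). It was at 322, 293 and 273 CPM in sh-ctrl and at 429, 571 and 593 CPM in miR-125b. Every miR-125b library lay above every sh-ctrl library, and miR-125b replicate 1 was the lowest of its group. The log2 fold change of Bax was 0.82 (SE 0.16, adjusted p in edgeR 0.0102), and over 14 alternatives the call held in 13. It was lost without sh-ctrl replicate 3, at 0.75 on the log2 scale and an adjusted p of 0.05003. Bax shares part of its strand with the annotated gene Gm45808, so some of its reads could be assigned to either.

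Bmf encodes a BH3-only protein that healthy cells hold at the actin cytoskeleton (ENSMUSG00000040093, chromosome 2, 118528757 to 118549687, minus strand, mm10). It is the member with the fewest reads, with 291, 200 and 248 counts in sh-ctrl, 68, 55 and 116 in miR-125b, and 91 and 67 in shArid3a. In CPM it was at 9.06, 6.39 and 6.75 in sh-ctrl and at 2.43, 1.68 and 3.25 in miR-125b. The groups did not overlap. The log2 fold change was −1.61 (SE 0.33, adjusted p in edgeR 0.0110), and Bmf was called in all 14 alternatives (log2 fold changes −1.87 to −1.40, adjusted p-values 6.16e-05 to 0.0419).

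Bmf also stood out for its seed matches. These are letters in a 3′ untranslated region (UTR) that pair with bases 2 to 8 of the microRNA, or with all of these but base 8 when followed by an A. They are shown because Bak1 and Bmf are both reported targets, of which Bmf was called and Bak1 was not. The mature sequence of mmu-miR-125b-5p (RefSeq, GRCm38.p6, identical from Mir125b-1 and Mir125b-2) is given first, with the seed in capitals. Below it stand all 9 matches of the 10 genes in the longest annotated 3′ UTR of each gene (GENCODE M21, GRCm38), written 5′ to 3′ on the strand of the transcript, with the matching bases in capitals. The labels do not name the arm of miR-125b.
miR-125b-5p: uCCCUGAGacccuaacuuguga
Bmf, 8mer, chr2:118532081-118532108, minus strand: gcgcccaccgcatgggCTCAGGGAttct
Bmf, 8mer, chr2:118532040-118532067, minus strand: tcaacttccggaagacCTCAGGGAgggt
Bmf, 8mer, chr2:118531424-118531451, minus strand: tctccccgctgcagtgCTCAGGGAggga
Bmf, 7mer-m8, chr2:118530884-118530911, minus strand: tggccacaatcatttttCTCAGGGtcta
Bak1, 8mer, chr17:27020312-27020339, minus strand: ccttggcggctggactCTCAGGGAttct
Mcl1, 8mer, chr3:95662965-95662992, plus strand: tttgtcttacacgtctCTCAGGGAaaaa
Bcl2, 7mer-m8, chr1:106540095-106540122, minus strand: ttgatcttcagtgattcCTCAGGGcctg
Bcl2, 7mer-A1, chr1:106539417-106539444, minus strand: tgcccaatttgggtcttTCAGGGAtttt
Bbc3, 7mer-A1, chr7:16318001-16318028, plus strand: gggaggaagatggggagTCAGGGAgggg

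An 8mer is CTCAGGGA, a 7mer-m8 is CTCAGGG without the final A, and a 7mer-A1 is TCAGGGA without the first C; only the transcript strand was searched, and each position was counted once, as its longest class. The 3801-base 3′ UTR of Bmf held 3 8mers, at bases 466, 507 and 1123, and 1 7mer-m8 at base 1664. Of 21028 genes with an annotated 3′ UTR, 4.59% held an 8mer, and 6 genes (0.0285%) held 3 or more. Both shares are over UTRs of all lengths. Among 1808 genes with a 3′ UTR of similar length (the shorter at least 0.8 of the longer), 10.8% held an 8mer. Bak1 held 1 8mer at base 608 of 1121, and Mcl1 1 8mer at base 2158 of 2353, where 4.23% and 8.11% of genes with UTRs of similar length held one. Bcl2 had 1 7mer-m8 and 1 7mer-A1 in 5086 bases, and 52.2% of genes of similar UTR length had a 7mer or an 8mer. Bbc3 had 1 7mer-A1. Bcl2l1, Bcl2l11, Bax, Bid and Pmaip1 had no match of these classes in the window searched. The shorter 6mer TCAGGG, standing alone, occurred at 1 place each in Mcl1, Bid and Bmf and is not listed. A match is a run of letters, not a measured binding site. Against sh-ctrl, Bmf lay at −1.59 on the log2 scale with shArid3a (adjusted p in edgeR 0.0989) and at −1.61 with miR-125b (0.0110). The part of the matches in these values was not tested.

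**Figure D2:**
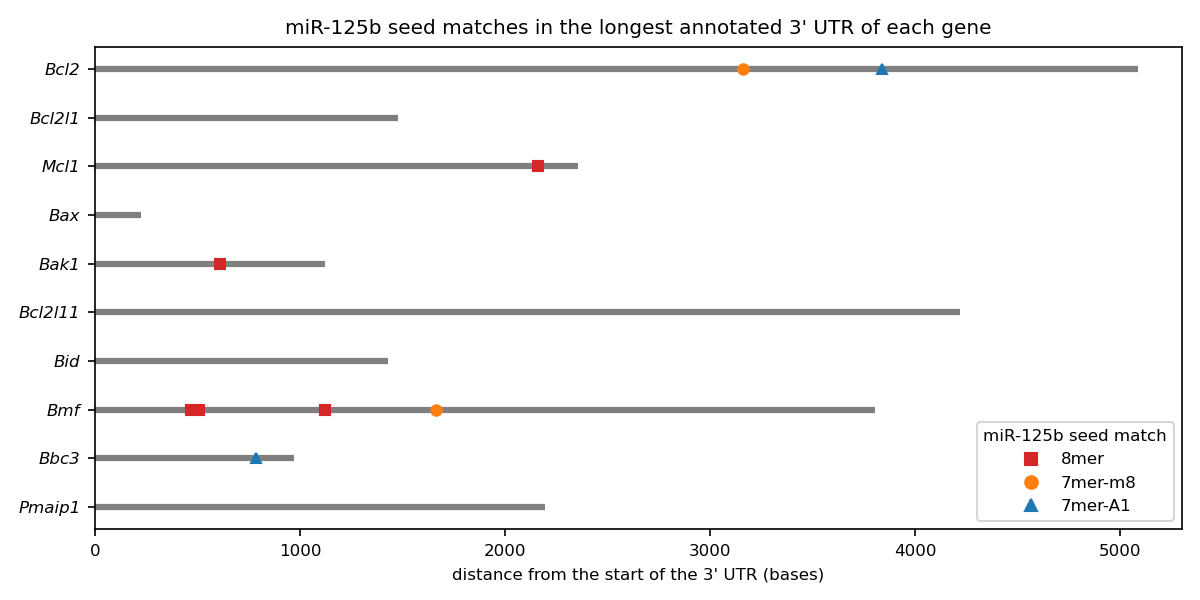
Matches to the miR-125b seed (squares, circles and triangles, by class) along the longest annotated 3′ UTR of each gene (grey bars), with the distance from the start of the UTR in bases on the x axis. Bmf holds 4 matches, 3 of them 8mers, while Bak1 and Mcl1 hold 1 8mer each and 5 genes hold none of the classes shown.

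Bak1 and Mcl1, the other members with an 8mer, were not called with miR-125b. Bak1 (ENSMUSG00000057789, chromosome 17, 27019810 to 27029009, minus strand, mm10) was at 141, 176 and 130 CPM in sh-ctrl and at 139, 136 and 133 in miR-125b, and the groups overlapped. Its log2 fold change was −0.15 (SE 0.14, adjusted p in edgeR 0.457). Over 14 alternatives it lay between −0.34 and −0.02, below 0 in each. Ggnbp1 is annotated over Bak1 on the other strand, and the use of strand in counting is not stated in the sources used here, so reads of the pair could be mixed. Mcl1, which encodes a short-lived pro-survival protein (ENSMUSG00000038612, chromosome 3, 95658788 to 95663176, plus strand, mm10), was at 273, 222 and 218 CPM in sh-ctrl and at 201, 202 and 194 in miR-125b. All miR-125b libraries were below all sh-ctrl libraries, a separation seen in 3 members, 1 higher (Bax) and 2 lower (Bmf, Mcl1). Of all genes tested, 44.9% separated, 21.7% higher and 23.2% lower. The log2 fold change was −0.28 (SE 0.13, adjusted p in edgeR 0.131), and with scaling by library totals alone it was −0.46 and called (0.0245).

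The pro-survival gene Bcl2 was at 102, 98.5 and 153 CPM in sh-ctrl and at 60.8, 89.5 and 109 in miR-125b, with overlapping groups and a log2 fold change of −0.46 (SE 0.22, adjusted p in edgeR 0.147). This value was −0.25 without sh-ctrl replicate 3, −0.26 without miR-125b replicate 1 and −0.67 without miR-125b replicate 3, and Bcl2 was called when no filter on low counts was used (0.0448). Bcl2l1 (log2 fold change 0.03), Bid (0.03), Bbc3 (0.09), Pmaip1 (−0.14) and Bcl2l11 (−0.21) lay within 1 SE of 0, with overlapping groups. Bbc3 was at 95.3, 178 and 159 CPM in miR-125b against 121 to 149 in sh-ctrl, so miR-125b replicate 1 lay below the controls and the others above. When libraries were scaled by their totals alone, the median log2 fold change over all genes shifted by −0.19 with miR-125b and equally by −0.19 with shArid3a. The directions of Bcl2l1, Bid and Bbc3 flipped with it here, and those of Bax, Bak1 and Bid in shArid3a, while the directions of Bmf in both comparisons and of Bax with miR-125b did not.

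**Figure D3:**
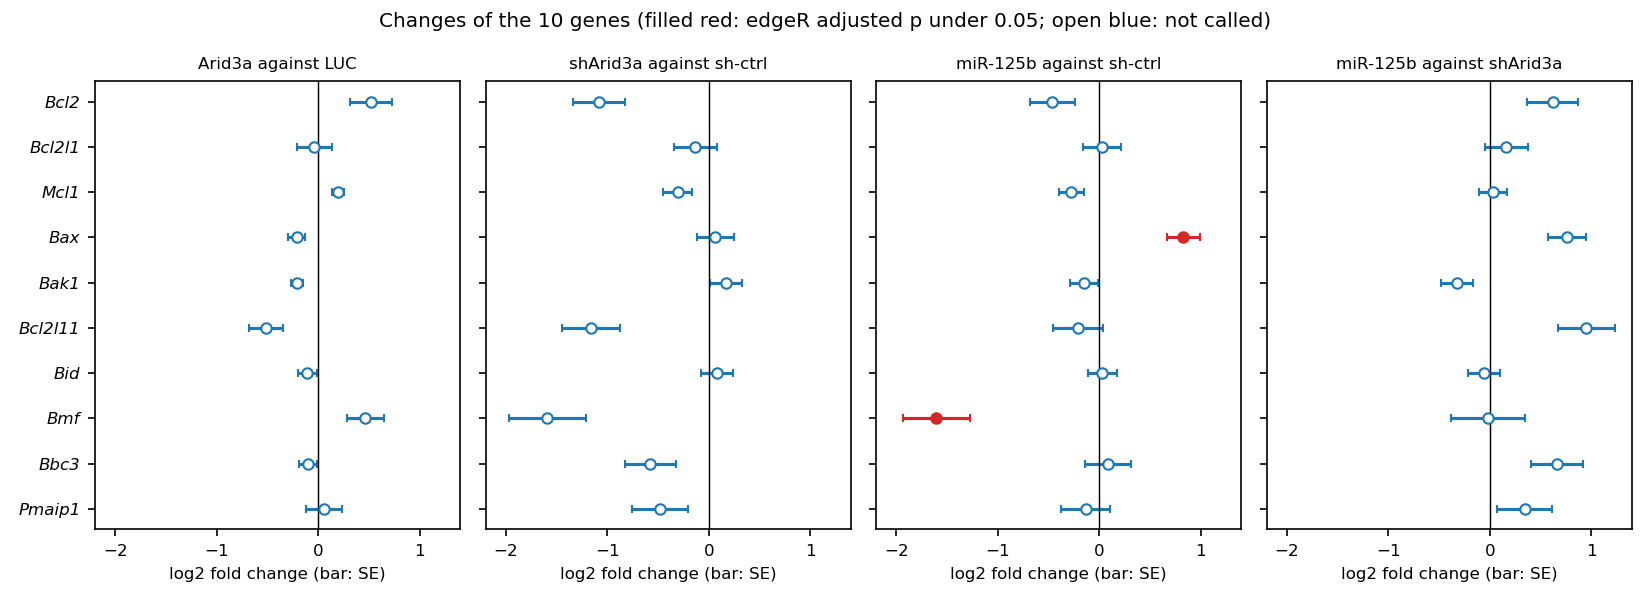
Log2 fold change (x axis) of each gene in the 4 comparisons, with bars of 1 SE; filled red points passed an adjusted p in edgeR of 0.05 and open blue points did not. Bax and Bmf with miR-125b are the called values, and Bmf lies at −1.59 with shArid3a and −1.61 with miR-125b, both against the same sh-ctrl libraries.

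The hairpin against Arid3a gave lower values of 3 members, Bmf, Bcl2l11 and Bcl2, by a log2 fold change of at least 1 each, but none passed the main test. With edgeR, 0 of 10 members were called, where 0.0857% of 14004 genes were (0.0357% lower). At an unadjusted p-value under 0.05 there were 4 members, all lower (Bcl2, Bcl2l11, Bmf, Bbc3), where 25.8% of all genes were under it. DESeq2 called 3 members, Bcl2 (adjusted p-value 0.00233), Bmf (0.00256) and Bcl2l11 (0.00314), among 1600 genes it called of 14004. Of these 14004 genes, 2741 got no adjusted p-value from DESeq2 and could not be called. The members' median log2 fold change was −0.39 against −0.02 over all genes tested.

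Bcl2 (ENSMUSG00000057329, chromosome 1, 106538178 to 106714274, minus strand, mm10) was at 56.4 and 56.4 CPM in the shArid3a libraries, below each sh-ctrl library (102, 98.5 and 153 CPM). The log2 fold change was −1.08 (SE 0.26, adjusted p in edgeR 0.0989). Bcl2l11, which encodes the BH3-only protein BIM (ENSMUSG00000027381, chromosome 2, 128126038 to 128162547, plus strand, mm10), was at 9.35 and 10.2 CPM in shArid3a and at 17.8, 19.6 and 27.2 in sh-ctrl. These groups did not overlap either, and the log2 fold change was −1.16 (SE 0.29, adjusted p in edgeR 0.0989). Bmf was at 2.73 and 2.24 CPM in shArid3a, a log2 fold change of −1.59 (SE 0.38, adjusted p in edgeR 0.0989). Over 13 alternatives the values of Bmf lay between −1.78 and −1.43, and in each of them the value was below 0. Groups did not overlap for 5 of the 10 members, all lower (Bcl2, Mcl1, Bcl2l11, Bmf, Bbc3), and 43.8% of all genes tested separated, 21.3% higher and 22.5% lower. With 2 shArid3a libraries the spread rests on the whole table.

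Bbc3 was at 74.7 and 109 CPM in shArid3a, below all sh-ctrl libraries (121 to 149), with a log2 fold change of −0.58 (SE 0.25, adjusted p in edgeR 0.186). Mcl1 was at 199 and 191 CPM, with −0.31 (SE 0.14, adjusted p in edgeR 0.204). The value of Bbc3 was −0.84 without shArid3a replicate 3 and −0.34 without shArid3a replicate 1, each leaving 1 library. Pmaip1 (−0.48, SE 0.27) overlapped the controls, and was −0.26 and −0.73 without the same libraries. Bax (0.06), Bak1 (0.17), Bid (0.08) and Bcl2l1 (−0.13) were within 0.2 of 0 on the log2 scale with overlapping groups.

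Set directly against shArid3a, the miR-125b libraries had higher Bax and Bcl2l11, but neither passed the test. The fold changes here do not use the mean of the sh-ctrl libraries, which both other comparisons share. Those libraries still enter the filter, the scaling and the estimate of the spread. In a fit of only the groups compared, the adjusted p in edgeR was 0.115 for Bax and 0.187 for Bcl2l11. Erythroid markers summed to 353.5 to 409 CPM in shArid3a and 193 to 235 in miR-125b, and neutrophil and monocyte markers to 36.7 to 72.7 and 88.5 to 165, and their part in these values was not tested. Of the 10 members, 0 were called by edgeR, where 1.35% of all genes were. At an unadjusted p-value under 0.05 there were 4, all higher with miR-125b (14.5% of all genes). DESeq2 called 2 members, Bax and Bcl2l11, among 737 genes of 14004, of which 574 got no adjusted p-value from it. Bax had a log2 fold change of 0.76 (SE 0.18, adjusted p in edgeR 0.0790), with the miR-125b libraries (429 to 593 CPM) above those of shArid3a (276 and 354). Bcl2l11 had 0.95 (SE 0.28, adjusted p in edgeR 0.144), with 14.9, 25.4 and 16.2 CPM in miR-125b against 9.35 and 10.2. Bcl2 had 0.62 (SE 0.25) and Bbc3 0.66 (SE 0.25), with adjusted p-values of 0.294 and 0.262. Bcl2 was 0.41 without miR-125b replicate 3, and Bbc3 0.43 without shArid3a replicate 1. Bmf had −0.02 (SE 0.37, adjusted p in edgeR 0.991), and its libraries of both groups overlapped, though an SE of this size leaves room for a difference in either direction. Bak1 had −0.32 (SE 0.16, adjusted p in edgeR 0.377), with 139, 136 and 133 CPM in miR-125b and 180 and 160 in shArid3a, which did not overlap. Groups were apart for 4 members, 3 higher (Bax, Bcl2, Bcl2l11) and 1 lower (Bak1), where 14.6% of all genes were apart and higher, 15.2% apart and lower and 29.7% apart in all. Without miR-125b replicate 1, Bax and Bbc3 were called (adjusted p in edgeR 0.0312 and 0.0448), where 329 of 13925 genes tested were.

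In the libraries labelled Arid3a, members differed from LUC by less than 0.6 on the log2 scale. None of the 10 was called, and 0% of 13495 genes were. Of the members, 6 had an unadjusted p-value under 0.05, 3 higher (Mcl1, Bcl2, Bmf) and 3 lower (Bax, Bak1, Bcl2l11), where 21.4% of all genes were under it. DESeq2 called Bak1 and Mcl1, among 1359 genes of 13495, of which 2643 got no adjusted p-value from it. The members' median was −0.07 against 0.01 over all genes.

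Bcl2 had the largest of these differences. It was at 123, 118 and 110 CPM in LUC and at 110, 210 and 184 CPM in the libraries labelled Arid3a, so replicate 1 of that group sat among the controls and the others above them. The log2 fold change was 0.52 (SE 0.21, adjusted p in edgeR 0.212). Without replicate 1 it was 0.76 with an adjusted p-value of 0.000592, and without replicate 2 it was 0.33 with 0.434. Bcl2l11 was at 28.9, 31.2 and 27.3 CPM in LUC and at 15.1, 24.6 and 21.6 in the libraries labelled Arid3a, apart from each other, with a log2 fold change of −0.51 (SE 0.17, adjusted p in edgeR 0.1495) that was −0.34 without replicate 1 (0.0362) and −0.67 without replicate 2 (0.204).

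Mcl1 and Bak1 had small differences with the smallest SEs of the members, and Bmf had a larger SE. Mcl1 was at 190, 185 and 183 CPM in LUC and at 202, 226 and 211 in the libraries labelled Arid3a, a log2 fold change of 0.20 (SE 0.06, adjusted p in edgeR 0.142). Bak1 was at 123, 127 and 120 CPM in LUC and at 108, 107 and 106 in the other group, a log2 fold change of −0.21 (SE 0.06, adjusted p in edgeR 0.117). Bmf was at 3.73, 4.30 and 4.33 CPM in LUC and at 5.11, 6.49 and 5.45, a log2 fold change of 0.46 (SE 0.18, adjusted p in edgeR 0.206). The groups were apart for 5 members (Mcl1 and Bmf higher, Bax, Bak1 and Bcl2l11 lower), and for 27.4% of all genes tested. Without replicate 1 of the libraries labelled Arid3a, 4 of the 10 members (Bcl2, Mcl1, Bak1, Bcl2l11) were called, where 3198 of 13789 genes tested were. That library differed from the rest of its group by a root mean square of 0.772 (log2) over the genes tested, against 0.427 to 0.633 for the other libraries of its table. In the table with the hairpins this measure was 0.566 to 0.836.

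Bcl2l1, Bid and Pmaip1 overlapped between the groups in all 4 comparisons. Bcl2l1, which encodes BCL-XL, was at 103, 143 and 106 CPM in sh-ctrl, 94.6 and 123 in shArid3a and 93.7, 130 and 140 in miR-125b. Bid, which links caspase 8 to the mitochondrion, was at 123, 143 and 114 CPM in sh-ctrl, 119 and 155 in shArid3a and 121, 133 and 139 in miR-125b. Among the 3 libraries labelled Arid3a, replicate 1 was the lowest for both genes (61.8 CPM for Bcl2l1 and 108 for Bid), while the others were at 99.4 and 100.3 CPM for Bcl2l1 and at 139 and 132 for Bid. Pmaip1 (21.2, 30.3 and 34.1 CPM there) was lowest in the same library.

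The roles of the family were also added up per kilobase in each library, as a description without a test. Effectors made 61.8% to 64.6% of the summed level of the 10 genes in sh-ctrl, 69.4% to 70.3% in shArid3a and 74.3% to 75.3% in miR-125b. Pro-survival genes made 16.5% to 17.4%, 13.2% to 15.04% and 10.1% to 11.7% in the same groups. Bax alone made 82.2% to 86.3%, 80.9% to 86.0% and 89.5% to 92.5% of the effector level in these groups. The summed level was 566 to 674 CPM per kb in shArid3a and 733 to 979 in miR-125b. A share can thus fall without a lower level of its genes, and no pro-survival gene was called with miR-125b in the main test. In the LUC libraries the pro-survival share was 18.2% to 19.9%, and in the libraries labelled Arid3a it was 22.2% to 24.3%. WT had the highest pro-survival share, 34.6% to 39.7%, of which Mcl1 was 84.6% to 85.8%, and the lowest summed level of the 10 genes, 279 to 317 CPM per kb against 595 to 664 in sh-ctrl. The ratio of Bax to Bcl2, both per kilobase, was 18.8 to 33.2 in sh-ctrl, 51.6 to 66.1 in shArid3a and 57.5 to 74.3 in miR-125b. It was 14.8 to 18.2 in LUC, 8.57 to 14.04 in the libraries labelled Arid3a and 25.4 to 53.7 in WT. In shArid3a Bcl2 was lowest of the groups with hairpins or miR-125b while Bax overlapped sh-ctrl, and in miR-125b Bax was highest with a mean of Bcl2 between those of shArid3a and sh-ctrl. These are RNA levels, and they give no measure of protein or of death in the cells.

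**Figure D4:**
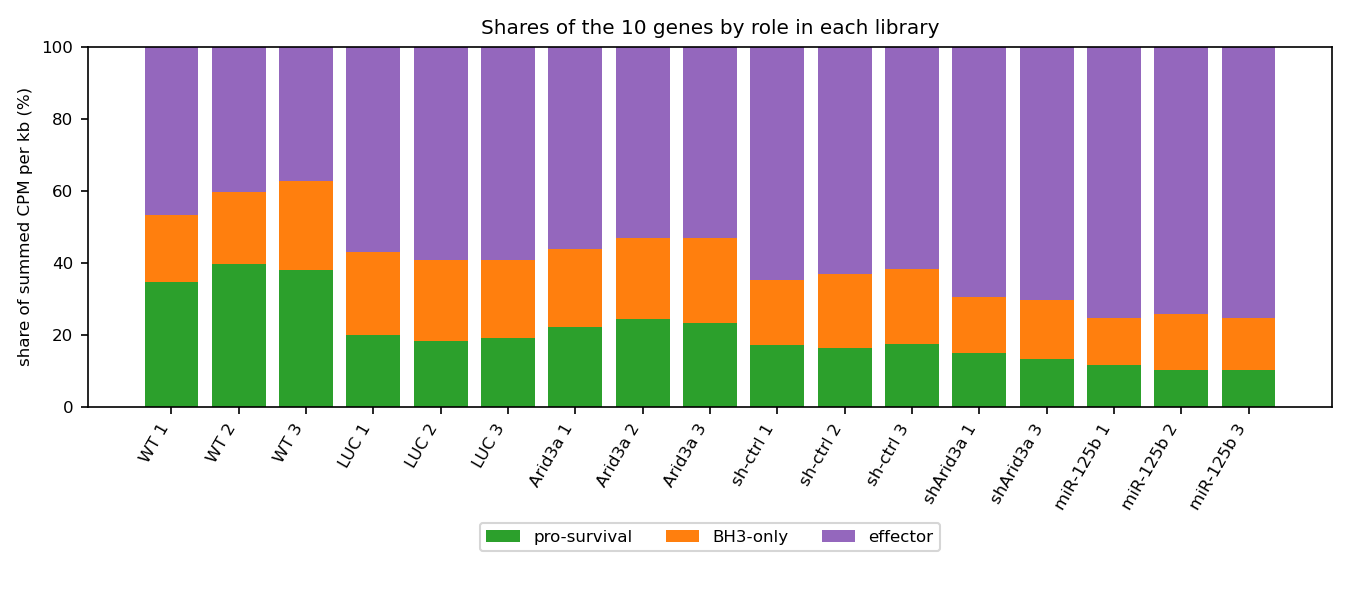
Share of the summed CPM per kilobase of the 10 genes (y axis, percent) that fell to pro-survival, BH3-only and effector genes in each library (x axis). The pro-survival share is 34.6% to 39.7% in WT and 10.1% to 11.7% in miR-125b.

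Genes around the family, from lists of related genes, changed with miR-125b in both directions. Counts by adjusted p in edgeR in this comparison were as follows, over the genes of each list that could be tested. Of 8 other BCL2 family genes tested out of 14, 1 rose and 2 fell, where 12.1% of all genes tested rose and 12.2% fell. These all-gene shares hold for each list counted with miR-125b below. Bad, a BH3-only gene, rose (36.4 ± 5.31 CPM in sh-ctrl and 58.7 ± 3.70 in miR-125b, SD, n = 3 each) by 0.67 on the log2 scale (SE 0.16, adjusted p in edgeR 0.0187). Bnip3, a gene of mitophagy and low oxygen, fell from 150.2 ± 67.2 to 42.5 ± 24.4 CPM (−1.84, SE 0.54, adjusted p-value 0.0349). Bcl2l13 fell (−0.54, adjusted p-value 0.0220), and it overlaps Bid on the other strand, so their reads could be mixed too.

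Downstream of the pore, 4 of 15 genes of the apoptosome, the caspases and their inhibitors rose and 7 fell, against 12.1% and 12.2% of all genes. Cycs, which encodes the cytochrome c released through the pore, rose from 182 ± 23.3 to 348 ± 53.6 CPM (SD, n = 3 each; log2 fold change 0.92, SE 0.17, adjusted p in edgeR 0.00911), and Aifm1 rose by 0.69 (0.0129). Casp6, which encodes an executioner caspase, fell (−0.81, adjusted p-value 0.0106). Casp6 was also lower with miR-125b than with shArid3a (log2 fold change −1.21, SE 0.18, adjusted p in edgeR 0.0128), as the 1 gene of all these lists called in that comparison. Of 8 outer membrane partners, 4 rose and 0 fell: Fis1 (0.76), Mtch2 (0.68), which encodes a receptor of BID, Vdac2 (0.59), whose protein binds BAK1 and BAX, and Vdac3 (0.56).

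Of 8 death receptor genes, 0 rose and 1 fell, Cflar (−0.79, adjusted p-value 0.0110), which encodes an inhibitor of caspase 8. Of 10 regulators tested, 1 rose and 2 fell. Dynll1, which encodes a dynein light chain that binds BIM, rose (0.80, adjusted p-value 0.0112). Foxo1, a transcription factor that can act on Bcl2l11, fell from 6.83 ± 0.768 to 2.21 ± 0.290 CPM (SD, n = 3 each; −1.65, adjusted p-value 0.00651), and Usp9x, which encodes an enzyme that stabilises MCL1, fell (−1.01, adjusted p-value 0.0138). In shArid3a and in the libraries labelled Arid3a, 0 genes of these 5 lists were called by edgeR. In the latter, 4 of 10 regulators were higher and 2 lower at an unadjusted p-value under 0.05, and 3 of 8 outer membrane genes were lower, where 21.4% of all genes passed in either direction. At an unadjusted p-value under 0.05, the outer membrane list had 6 of 8 genes higher in shArid3a (median log2 fold change 0.40 against −0.02 over all genes), and the regulator list 5 of 10 lower (median −0.54) and 2 higher, where 25.8% of all genes passed in either direction.

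The genes most alike in pattern were found by the root mean square difference of log2 CPM over the 17 libraries, each gene centred on its own mean, among 13089 genes. For Bak1 they were Napa (0.111), Acadl (0.114) and Med9 (0.118), where Bak1 itself varied by 0.394 around its mean. For Bmf, which varied by 0.912, they were Pfkfb4 (0.316), Fam214b (0.341) and Tcp11l2 (0.367). For Bcl2l11, which varied by 0.512, they were Gm26617 (0.276), Tfdp1 (0.289) and P2ry1 (0.296). These likenesses include the differences between the 3 tables and carry no test.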

How the data were processed

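Per the submitters' processing notes, the tools fastp, HISAT2 2.0.5 and featureCounts and the build mm10 were used by the authors; annotation release and use of strand are not given in the sources used here. The values in the deposited tables are read counts, whole numbers throughout, that were not normalized. Tables were joined by Ensembl identifier because 3098 symbols differ between the first 2 tables. Counts were tested with edgeR 4.0.16 (R 4.3.3; TMM, filterByExpr, glmQLFit, glmQLFTest), 1 term per group, 1 fit for the LUC and Arid3a table and 1 for the 8 libraries with hairpins or miR-125b. Genes were called at an adjusted p under 0.05 (Benjamini-Hochberg, all genes tested in the fit); SEs were derived from the F statistics. All 10 members passed the filter in both fits. Levels used TMM over the shared genes, and log values a prior count of 2. The procedure was run on simulated counts with the same spread for every gene. Such counts lack the differences in scaling between these libraries, so the run checks the code and not the error rates here. Alternatives were DESeq2 1.42.0, RLE factors, library totals, no filter, at least 10 counts in every library, a replicate block, only the groups compared, no ribosomal RNA-like genes, and each library left out. Members and lists were chosen with earlier results of these data known. All 10 members were to be named; of the lists, called genes, at most 4 per list and comparison by adjusted p-value, of which 1 gene is not reported here; and 3 genes alike to Bak1, Bmf and Bcl2l11. Deviations from group means of same-numbered libraries correlated over genes by 0.427, 0.151 and 0.294 for miR-125b and sh-ctrl. Their numbers were used as pairs only in the replicate block, and the main fit was unpaired. The pairing was found from the data. It is not clear-cut, since sh-ctrl replicate 3 and miR-125b replicate 2 correlated by 0.205. Positions are those of the WT table; sequences are from RefSeq (GRCm38.p6) and GENCODE M21 (GRCm38, the assembly of mm10). Counts are reads without molecular identifiers.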

Additional observations from a re-analysis of the deposited data

How the results depend on the processing

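The calls of Bmf with miR-125b held in all 14 alternatives and that of Bax in 13. Among the members' log2 fold changes under the alternatives, 477 kept direction and side of the threshold, 21 came to pass it, 1 ceased to, and 31 turned in sign, none of them called in the main analysis. With library totals, the log2 fold change of Bcl2l1 was 0.002 (Arid3a against LUC) and −0.15 (miR-125b against sh-ctrl), that of Bid −0.11 (shArid3a against sh-ctrl) and −0.16 (miR-125b against sh-ctrl), Bbc3 −0.0906 (miR-125b against sh-ctrl), and Bak1 −0.0136 and Bax −0.13 (shArid3a against sh-ctrl). Leaving out libraries moved it from −0.15 to 0.16 for Bcl2l1 and −0.0885 to 0.23 for Pmaip1 (Arid3a against LUC), −0.10 to 0.22 for Bax, −0.30 to 0.0284 for Bcl2l1 and −0.0916 to 0.25 for Bid (shArid3a against sh-ctrl), −0.0947 to 0.19 for Bcl2l1, −0.0631 to 0.12 for Bid, −0.10 to 0.31 for Bbc3 and −0.31 to 0.0835 for Pmaip1 (miR-125b against sh-ctrl), and −0.0218 to 0.08 for Mcl1, −0.22 to 0.12 for Bid and −0.28 to 0.21 for Bmf (miR-125b against shArid3a). The causes were not tested.

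Members called numbered 2 with DESeq2 and 0 to 4 with libraries left out (Arid3a against LUC, 4 without Arid3a replicate 1), 3 with DESeq2 and 3 without a filter (shArid3a against sh-ctrl), 1 to 2 with libraries left out (miR-125b against sh-ctrl, 1 without sh-ctrl replicate 3), and 2 with DESeq2, 3 without a filter and 0 to 2 with libraries left out (miR-125b against shArid3a). Genes called numbered 1359 with DESeq2, 71 without a filter and 0 to 3198 with libraries left out (Arid3a against LUC); 1600 with DESeq2, 1237 without a filter, 20 with library totals, 19 with 10 counts in every library, 0 without ribosomal RNA-like genes (3569 at an unadjusted p-value under 0.05) and 2 to 11 with libraries left out, from 12 (shArid3a against sh-ctrl); 734 to 2872 with libraries left out, from 3414 (miR-125b against sh-ctrl); and 737 with DESeq2, 715 without a filter and 12 to 329 with libraries left out, from 189 (miR-125b against shArid3a). These counts rest on unlike numbers of genes tested. Against LUC, 22152 genes were tested without a filter and 13789 without Arid3a replicate 1, from 13495. In the table with the hairpins, 21696 were tested without a filter and 11534 with 10 counts in every library, from 14004. Library totals took the higher share among calls from 49.8% to 26.6% (miR-125b against sh-ctrl) and from 58.3% to 40.0% (shArid3a against sh-ctrl). Where a left-out library leaves 1 shArid3a library, it is assumed to vary like the other groups.

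The replicate block changed no call of a member in any comparison. In miR-125b against sh-ctrl, Bax had a log2 fold change of 0.81 with the block (adjusted p in edgeR 0.0120) and Bmf −1.63 (0.00862). The values given for this comparison elsewhere are from the unpaired main fit, unless an alternative is named. For the other groups the check does not settle a pairing. Same-numbered libraries correlated by 0.431 and 0.161 for sh-ctrl and shArid3a, and by 0.237 and 0.2 for miR-125b and shArid3a. With 2 shArid3a libraries the deviations mirror each other. For Arid3a and LUC the values were 0.158, 0.365 and 0.008, and a pair of unlike numbers reached 0.2. With the block, Bmf turned to 0.13 in miR-125b against shArid3a, where 255 genes were called, and 15 genes were called in shArid3a against sh-ctrl. Depth limits Bmf most, with 55 to 344 counts per library. Of 60 mean levels, 23 moved by more than 1 SD with library totals.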
